A study of Homo sapiens with 2 samples.

Results

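The FOS, JUN and EGR genes encode transcription factors of the immediate early response. The group held 10 genes, matched by symbol among 46427 rows of the deposited gene table: FOS, FOSB, FOSL1, FOSL2, JUN, JUNB, JUND, EGR1, EGR2 and EGR3. They were chosen by name with earlier count ratios of these same 2 libraries known, so the ratios below are a description and no test. Cultured cells labelled as the pancreatic adenocarcinoma line MIA PaCa-2 had been exposed for 48 hours to iMQT_020, the treatment that the series describes as an inhibitor of mitochondrial glutamine transport, or to vehicle. Each treatment had 1 library of total RNA, so no difference could be set against replicates, and an effect of iMQT_020 cannot be told apart from other differences between the 2 cultures or libraries. The sources used here do not give the dose, the number of cultures behind each library or the handling before lysis.

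FOS and JUN proteins carry a basic region and a leucine zipper. A FOS protein binds DNA as a heterodimer with a JUN protein, whereas JUN proteins can also pair with each other, and these dimers are known as AP-1. EGR proteins bind GC-rich sites through zinc fingers. In most cells some of these genes, FOS and EGR1 among them, are transcribed within minutes of growth factor, stress or calcium signals. This goes through serum response factor with ETS partners and through CREB, and their messages decay fast. Several of them are commonly read as markers of ERK and JNK activity.

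The libraries held 59139157 estimated counts (iMQT_020) and 67095283 (vehicle). CDKN2A, in a region that MIA PaCa-2 is known to lack, was at 208 TPM in the iMQT_020 library and 278 TPM in the vehicle library, and CD44 at 0.0209 and 0.0964 TPM, so these markers go against the labelled identity. VIM was at 438 TPM (iMQT_020) and 403 TPM (vehicle) and KRT8 at 92.3 and 128 TPM, while the ductal keratins KRT7 and KRT19 were listed at 0 in both. Marker lists of other cells were low: the 3 acinar genes were at 0 in both libraries, the 3 endothelial genes summed to 0.272 TPM (iMQT_020) and 0.0685 TPM (vehicle), the 4 leukocyte genes to 2.05 and 1.18 TPM with PTPRC and CD3E at 0, and the 5 fibroblast genes to 11.3 and 16.8 TPM, nearly all COL1A1, with COL1A2 and DCN at 0. The share of counts from mitochondrial genes, without rRNA, was 3.18% (iMQT_020) and 1.72% (vehicle), and its part in the ratios was not tested. Mitochondrial genes were matched by symbol, 39 in all with rRNA, and nuclear genes with like symbols may be among them. The same match was used where mitochondrial genes were left out of the scaling. In bulk RNA, fewer cells with a transcript and less of it per cell cannot be told apart.

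The DNA just upstream of the annotated starts is shown for 5 genes, FOS, FOSB and EGR1, which were higher in the iMQT_020 library, and JUN and JUND, which were lower. Each line is the 210 bases before the RefSeq start in GRCh38.p14, on the strand of the gene, for FOS (chr14:75278618-75278827, plus strand), FOSB (chr19:45467786-45467995, plus), EGR1 (chr5:138465269-138465478, plus), JUN (chr1:58784048-58784257, minus) and JUND (chr19:18281623-18281832, minus). Capitals mark matches to the motifs searched, described after the sequences.
FOS: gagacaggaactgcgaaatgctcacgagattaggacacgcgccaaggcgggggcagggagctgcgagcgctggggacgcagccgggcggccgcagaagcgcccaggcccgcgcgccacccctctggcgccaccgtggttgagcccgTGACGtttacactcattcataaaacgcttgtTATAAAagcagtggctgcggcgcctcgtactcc
FOSB: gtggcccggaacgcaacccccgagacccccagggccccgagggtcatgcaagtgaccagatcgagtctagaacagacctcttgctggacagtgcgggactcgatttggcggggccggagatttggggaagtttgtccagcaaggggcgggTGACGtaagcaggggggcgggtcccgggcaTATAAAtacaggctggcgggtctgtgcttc
EGR1: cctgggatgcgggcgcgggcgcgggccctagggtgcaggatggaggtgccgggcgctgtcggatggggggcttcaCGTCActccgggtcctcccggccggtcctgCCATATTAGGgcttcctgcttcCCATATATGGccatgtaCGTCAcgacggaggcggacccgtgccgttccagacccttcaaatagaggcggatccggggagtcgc
JUN: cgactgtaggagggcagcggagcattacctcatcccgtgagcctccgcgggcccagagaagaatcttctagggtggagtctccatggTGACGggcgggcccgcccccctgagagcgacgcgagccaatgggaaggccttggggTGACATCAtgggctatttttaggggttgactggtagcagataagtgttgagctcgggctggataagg
JUND: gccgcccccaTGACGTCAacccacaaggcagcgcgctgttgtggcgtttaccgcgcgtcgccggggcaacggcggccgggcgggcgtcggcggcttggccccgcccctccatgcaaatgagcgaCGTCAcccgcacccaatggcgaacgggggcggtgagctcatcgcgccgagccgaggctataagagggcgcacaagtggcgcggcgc

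The motifs were the cAMP response element core TGACG, the full element TGACGTCA, which contains the core on both strands, the AP-1 site TGACTCA, the variant TGACATCA known as jun1 in the JUN promoter, the EGR site GCGTGGGCG, the CArG box bound by serum response factor, and TATAAA, the last on the strand of the gene only and the others on both strands. The core TGACG stood upstream of all 8 genes that had windows in the RefSeq sequences used, against 19.0% of 35116 windows of all genes. For EGR2 it was in 1 of its 3 windows of 210 bases. The core nearest the start lay at −64 to −60 in FOS, at −60 to −56 in FOSB and at −66 to −62 in FOSL2. In JUN it lay at −123 to −119 and in JUNB at −137 to −133. On the opposite strand it lay at −66 to −62 in EGR1, −54 to −50 in EGR2 and −86 to −82 in JUND. A link of the core to the ratios was not tested. EGR1 carried 2 CArG boxes, from −105 to −96 and from −83 to −74, and EGR2 also held 1, against 1.01% of all windows. TATAAA was in the windows of FOS, FOSB and JUNB, against 5.86% of all windows. TGACATCA was found in JUN alone of the 8 genes (2.23% of all windows) and TGACGTCA in JUND alone (1.57%). TGACTCA and GCGTGGGCG were found in 0 of the 8 genes (3.69% and 0.607% of all windows). A gene was counted if any of its windows matched, whereas the shares are of single windows. FOSL1 and EGR3 had no window in the sequences used and were not searched. Only these 210 bases were searched, so a motif not found here, in FOS or any other gene, may still lie further upstream. These matches are descriptions of letters, and binding was not measured.

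Differences are given as the log2 ratio of CPM, counts scaled to library size, iMQT_020 over vehicle, with an exact 95% interval that covers counting error only. Genes reaching 50 counts in either library were called measured. The filter kept 9 of the 10 genes, EGR2 with 91 counts in each library being the nearest inside it and FOSL1 with 22 (iMQT_020) and 14 (vehicle) outside it. EGR3 and FOS were the 2 genes that were higher by 2-fold or more with iMQT_020, where 2.15% of 14805 measured genes passed that line, and 0 of the 9 were at least 2-fold lower, against 3.09% of measured genes. FOSB, EGR1 and FOSL2 lay between 1.5-fold and 2-fold higher, which makes 5 at 1.5-fold or more, against 6.3% of measured genes. JUNB was slightly higher, EGR2 had the same number of counts in each library, and JUN and JUND were lower. The median over the 9 genes was 0.77, against −0.02 over all measured genes. Since these ratios also led to the choice of the genes, nothing is read from these shares.

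**Figure D1:**
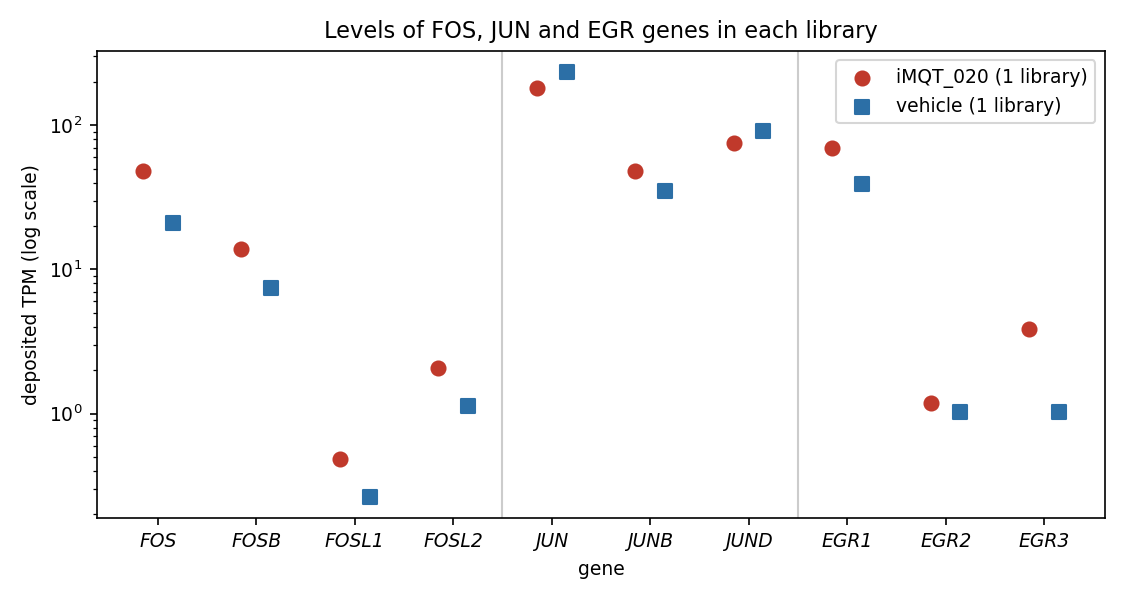
Deposited TPM of each gene on a log scale, with the iMQT_020 library as circles on the left of each pair and the vehicle library as squares on the right, 1 library each. JUN was highest in both libraries, at 180 TPM (iMQT_020) and 234 TPM (vehicle), and FOSL1 lowest, at 0.484 and 0.266 TPM.

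The order of levels, per transcript length, was nearly the same in the 2 libraries. JUN came first, JUND second at 74.8 TPM (iMQT_020) and 91.7 TPM (vehicle), and EGR1 next at 69.4 and 39.2 TPM. FOS and JUNB stood side by side in the iMQT_020 library, at 48.1 and 47.9 TPM, whereas in the vehicle library FOS, at 21.0 TPM, was below JUNB, at 35.1 TPM. FOSB followed at 13.8 TPM (iMQT_020) and 7.42 TPM (vehicle). EGR3, FOSL2, EGR2 and FOSL1 were all under 4 TPM in both libraries, and in the vehicle library EGR3 and EGR2 were nearly equal, at 1.02 TPM each. With 1 library each, the spread of these levels between cultures is unknown.

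FOS, the founding member of its family and a classic serum-induced gene (chromosome 14, 75278828 to 75282230, GRCh38), had 2584 counts in the iMQT_020 library and 1314 in the vehicle library. Its log2 ratio was 1.15 (1.06 to 1.25), or 2.22-fold higher (2.08 to 2.38). Among 9312 genes that reached 1000 counts in either library, 0.322% were at least 2-fold higher and 0.183% had a higher ratio than FOS. FOSB, whose protein also has a truncated splice form known from neurons (chromosome 19, 45467996 to 45475179), had 1301 counts (iMQT_020) and 813 (vehicle), a ratio of 0.85 (0.73 to 0.98). The counts sum its transcripts, so the splice forms were not separated. FOSB was thus higher too, by 1.81-fold, but by less than FOS, and the level of FOSB per FOS was 28.8% in the iMQT_020 library and 35.4% in the vehicle library.

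The Fos-related antigens FOSL1 and FOSL2 lack the strong activation domain of FOS and often persist when FOS has decayed. FOSL2 (chromosome 2, 28392858 to 28417317) had 344 counts in the iMQT_020 library and 227 in the vehicle library, a ratio of 0.77 (0.53 to 1.02). Its antisense neighbour FOSL2-AS1, which shares 1815 bases with it, had 0 counts (iMQT_020) and 2 counts (vehicle). FOSL1, a gene that sustained ERK signalling is known to induce in carcinoma cells, was hardly present: at 22 counts (iMQT_020) and 14 counts (vehicle) its ratio of 0.81 had an interval of −0.20 to 1.91, so a difference was not detectable at this depth.

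JUN, the prototype of its family and a target of JNK (chromosome 1, 58780791 to 58784047), had 14972 counts in the iMQT_020 library and 22695 in the vehicle library. Its ratio of −0.42 (−0.45 to −0.39) means that the iMQT_020 library held 1.34-fold less (1.31 to 1.37). JUND, the member that many resting cells express and that responds least to stimulation (chromosome 19, 18279694 to 18281622), was also lower, with 3687 counts (iMQT_020) and 5272 counts (vehicle) and a ratio of −0.34 (−0.40 to −0.28). JUNB, which can oppose JUN at some promoters (chromosome 19, 12791486 to 12793315), was the one JUN gene that was higher, with 2236 counts (iMQT_020) and 1916 counts (vehicle) and a ratio of 0.40 (0.31 to 0.49). The 3 JUN genes therefore did not lie on one side. HOOK2, which overlaps JUNB by 865 bases, had 625 counts (iMQT_020) and 671 counts (vehicle), a ratio of 0.07 (−0.09 to 0.23). The strand setting of the counting is not given, so reads in the shared bases cannot be told apart.

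EGR1, the most studied EGR factor and a target of ERK through ELK1 and serum response factor (chromosome 5, 138465479 to 138469303), had 5562 counts in the iMQT_020 library and 3664 in the vehicle library. Its ratio was 0.78 (0.72 to 0.84), or 1.72-fold higher (1.64 to 1.79). EGR3, known from muscle spindles and as a brake on T cell activation, had 440 counts (iMQT_020) and 138 counts (vehicle), at 3.83 and 1.02 TPM. At 1.85 (1.57 to 2.14), or 3.59-fold higher, it had the highest ratio of the 9, and 0.446% of measured genes had a higher one. An overlapping long non-coding gene at its end, LOC107986924, was at 0 in both libraries. EGR2, best known from myelinating Schwann cells and T cells (chromosome 10, 62811996 to 62819167), had 91 counts in each library and a ratio of 0.18 (−0.26 to 0.61) after scaling to depth. Its interval holds both no difference and a 1.5-fold higher level.

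**Figure D2:**
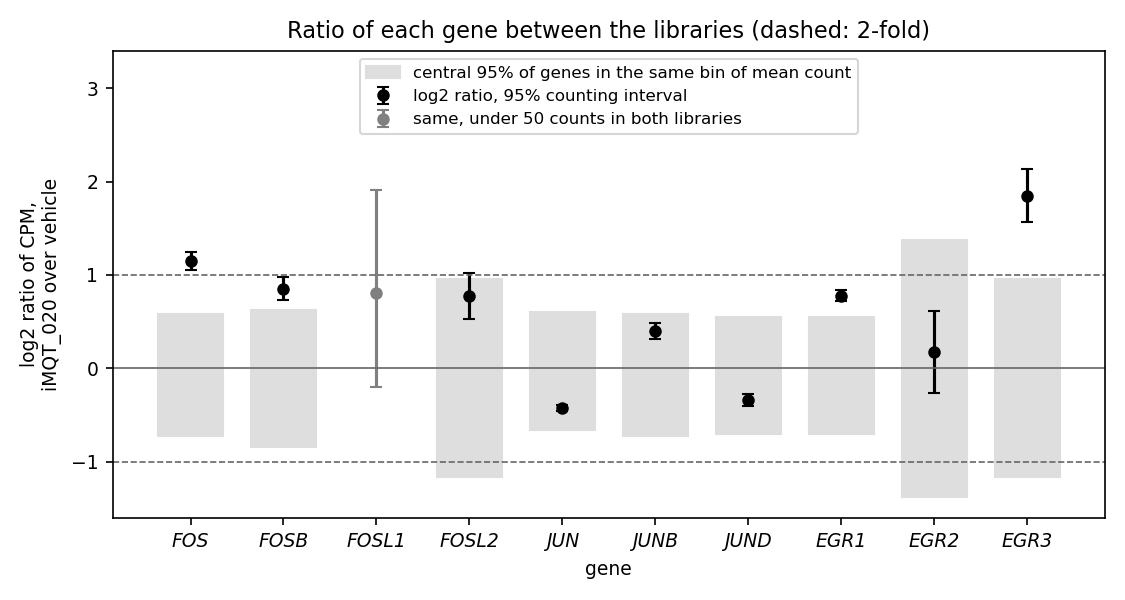
Log2 ratio of CPM, iMQT_020 over vehicle, for each gene (points) with exact 95% counting intervals (bars), over grey boxes that span the central 95% of measured genes in the same bin of mean count. FOS at 1.15, FOSB at 0.85, EGR1 at 0.78 and EGR3 at 1.85 lie above their boxes, and JUN, JUNB, JUND, EGR2 and FOSL2 inside theirs; FOSL1, in grey, was under the filter and has no box.

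Counting intervals are narrow for well-covered genes and say nothing of variation between cultures. Intervals lay wholly above no difference for 6 of the 9 genes and wholly below it for 2, yet the same was true of 35.0% and 39.1% of all measured genes, so an interval that leaves out no difference was common in these libraries. The spread of other genes with similar counts gives a wider yardstick. In 15 bins of mean count, the central 95% of genes lay between −0.72 and 0.58 in the bin of FOS and JUNB, between −0.84 and 0.62 in that of FOSB, between −0.70 and 0.55 in that of EGR1 and JUND, and between −1.17 and 0.96 in that of EGR3 and FOSL2. FOS, FOSB, EGR1 and EGR3 were above the range of their bin, and 0 of the 9 genes were below. By construction, 95% of the genes of a bin lie inside its range. Since these ratios also led to the choice of the genes, nothing is read from this count. JUN, at −0.42, was inside a range of −0.66 to 0.61, and 10.5% of genes with at least 1000 counts had a lower ratio.

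A ratio between 2 genes within a library needs no scaling between libraries. FOS stood at 26.7% of the level of JUN in the iMQT_020 library, against 8.96% in the vehicle library, both in TPM, which is a 2.98-fold difference from the counts (2.78 to 3.20, exact 95% interval, counting error only). EGR1 per JUN was 38.6% (iMQT_020) and 16.8% (vehicle), 2.30-fold apart (2.20 to 2.41). JUNB per JUN was 26.6% (iMQT_020) and 15.03% (vehicle), 1.77-fold apart (1.66 to 1.89). JUND kept nearly the same level relative to JUN, at 41.6% (iMQT_020) and 39.2% (vehicle), 1.06-fold apart (1.01 to 1.11). None of these ratios was centred on GC content, which was 56.1% for JUN, 64.9% for JUNB and 69.9% for JUND. Within the EGR genes, EGR3 per EGR1 was 5.52% in the iMQT_020 library and 2.62% in the vehicle library.

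**Figure D3:**
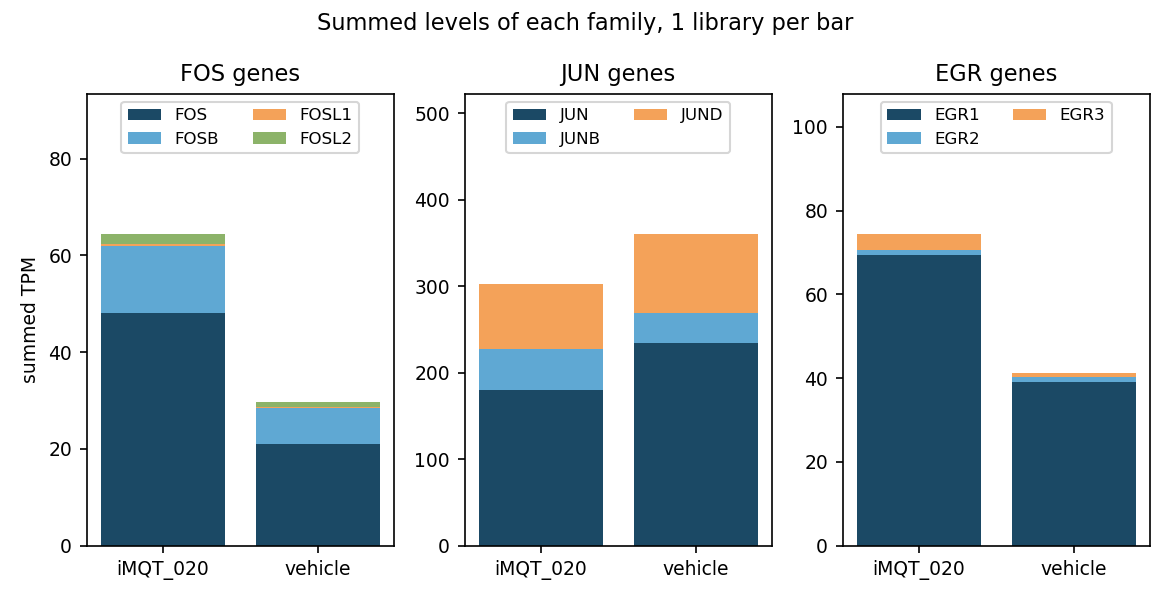
Summed TPM of the FOS, JUN and EGR genes, stacked by gene, with the iMQT_020 library on the left and the vehicle library on the right of each panel, and axes that start at 0 and differ between panels. The FOS sum was 64.5 TPM (iMQT_020) and 29.8 TPM (vehicle), the EGR sum 74.5 and 41.2 TPM, and the JUN sum 303 and 361 TPM.

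Summed over each family, the 4 FOS genes reached 64.5 TPM in the iMQT_020 library and 29.8 TPM in the vehicle library, 2.17-fold higher, and the 3 EGR genes 74.5 and 41.2 TPM, 1.81-fold higher. The 3 JUN genes together were at 303 TPM (iMQT_020) and 361 TPM (vehicle), 1.19-fold lower. Summed FOS mRNA was therefore 21.3% of summed JUN mRNA in the iMQT_020 library and 8.25% in the vehicle library. JUN messages stayed in excess of FOS messages in both. Within the families, FOS held 74.6% (iMQT_020) and 70.4% (vehicle) of the FOS total, EGR1 93.3% and 95.05% of the EGR total, with EGR3 at 5.15% and 2.49%, and JUN 59.5% and 64.8% of the JUN total, with JUNB at 15.8% and 9.74%. These are mRNA levels, and the amounts of protein and of dimers were not measured.

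The ratio varied with transcript sequence across all genes, and centring moved JUNB and JUND, the most GC-rich of the 9, by more than the others. Over 10 bins of GC content, the median log2 ratio was 0.13 at the low end and −0.31 at the high end. JUND, at 69.9% GC, lies in the highest bin, and after centring on genes of like GC content and length its ratio was −0.04 rather than −0.34. JUNB, at 64.9% GC, was at 0.70 after centring rather than 0.40, and JUN at −0.27. FOS was at 1.29, FOSB at 1.01, EGR1 at 0.85, EGR3 at 1.81 and FOSL2 at 0.74, so FOSB passed 2-fold with centring. The part that base composition plays in these ratios was not tested.

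**Figure D4:**
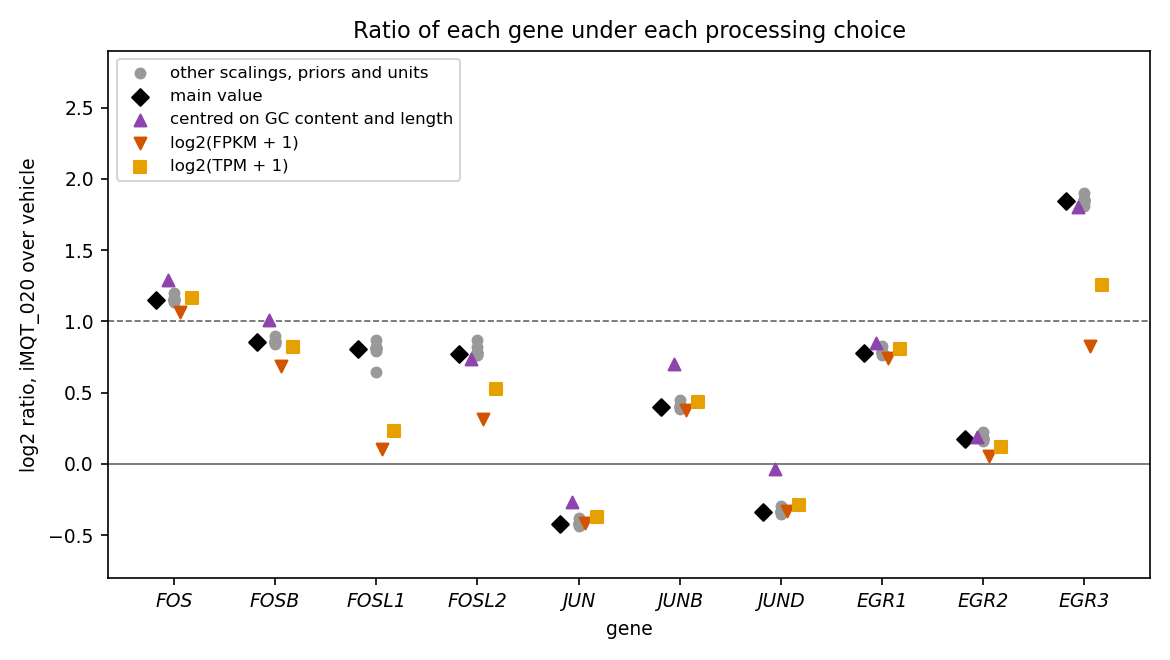
Log2 ratio of each gene, iMQT_020 over vehicle, under each processing choice (symbols), with the dashed line at 2-fold. No gene crossed no difference under any choice, JUND moved to −0.04 and JUNB to 0.70 with centring on GC content and length, and EGR3 dropped to 0.83 on log2(FPKM + 1).

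Deposited FPKM and TPM gave the same picture without an added constant, with the FPKM ratio within 0.05 log2 of the count ratio for every one of the 10 genes. On log2(FPKM + 1) EGR3, at 1.53 FPKM (iMQT_020) and 0.421 FPKM (vehicle), was at 0.83, within 2-fold, since the added 1 is large beside such levels. FOS stayed at 1.07.

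Related genes were read from lists that share some members, such as ATF3, TRIB1 and TGFB1. The median of the 16 measured AP-1 partners and related leucine zipper factors was 0.08. They lay evenly, 8 above and 8 below 0, where 47.3% of all measured genes were above 0. At least 2-fold higher were 0 and lower 1, against 2.15% and 3.09% of all measured genes. ATF3, a stress-induced partner of JUN, had 2732 counts in the iMQT_020 library and 1707 in the vehicle library, a ratio of 0.85 (0.77 to 0.94), close to FOSB. BATF3, a JUN partner of immune cells, was at −0.91 (−1.08 to −0.75) and MAFA at −0.70 (−0.87 to −0.54). With centring on GC content and length, ATF3 was at 0.91, BATF3 at −0.62 and MAFA at −0.40. MAFF, a small MAF factor, was the one at least 2-fold lower, at −1.71 (−2.60 to −0.95), with 17 counts (iMQT_020) and 64 counts (vehicle). It passed the filter through the vehicle library alone and was at −0.29 on log2(FPKM + 1).

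The corepressor genes of EGR proteins were close to no difference. NAB1 was at −0.23 (−0.31 to −0.15) and NAB2, itself an EGR target, at −0.12 (−0.25 to 0.02), with 793 counts (iMQT_020) and 972 counts (vehicle), while WT1, a related zinc finger factor, was at −0.10 (−0.31 to 0.11), and with centring NAB2 was at 0.06. EGR4, the fourth EGR gene, had 13 counts (iMQT_020) and 4 counts (vehicle) and was under the filter. Of the 24 kinases and factors upstream of the family, 14 were above 0, against 47.3% of all measured genes, with a median of 0.06. At least 2-fold apart were 0 of the 24, where 2.15% of all measured genes were 2-fold higher and 3.09% lower. Among the 24, the kinase MAP2K4, which activates JNK, was at 0.59 (0.48 to 0.71) and the ETS factor ELK4 at 0.51 (0.45 to 0.57). The serum response factor coactivators MRTFA and MRTFB were at 0.46 each. With centring, ELK4 was at 0.24, MRTFB at 0.26 and MRTFA at 0.56.

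The list of ubiquitin ligases that act on FOS or JUN proteins, with ligase adaptors, held 6 genes. Of these, 4 were above 0, against 47.3% of all measured genes, with a median of 0.10. At least 2-fold lower was 1 of the 6, against 3.09% of all measured genes. That gene, TRIB1, an adaptor of the ligase COP1, had 1134 counts (iMQT_020) and 2623 counts (vehicle), a ratio of −1.03 (−1.14 to −0.93), though it was at −0.99 with deposited TPM or with centring. TRIB2 was at −0.52, while the ligases ITCH and FBXW7 were at 0.40 and 0.32.

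Other immediate early genes went both ways. Of 34 measured, 21 were above 0 and 13 below, with a median of 0.14, where 47.3% of all measured genes were above 0. At least 2-fold apart were 3 in each direction, where 2.15% of all measured genes were 2-fold higher and 3.09% lower. On log2(FPKM + 1), 4 of these 6 were within 2-fold, PLK3 at −0.44, NR4A2 at 0.52, TRIB1 at −0.90 and CCN1 at 0.99. The 3 higher were CCN2, a matricellular growth factor gene, at 1.30 (1.22 to 1.38), NR4A2, an orphan nuclear receptor, at 1.02 (0.76 to 1.28) and at 0.99 with centring, and CCN1 at 1.01 (0.96 to 1.06). MYC was at −1.14 (−1.17 to −1.10), with 7796 counts (iMQT_020) and 19348 counts (vehicle), PLK3 at −1.20 (−1.65 to −0.78) and TRIB1, again, at −1.03. NR4A1, at 0.73 (0.60 to 0.86), IER2, at 0.64 (0.58 to 0.70), and the MAP kinase phosphatase gene DUSP1, at 0.69 (0.63 to 0.74), lay near EGR1, whereas IER3 and IER5 were at −0.61 and −0.56. CCN1, NR4A2, NR4A1, IER2, DUSP1, IER3 and IER5 were chosen after their values were seen. Of 8 measured feedback inhibitors of ERK signalling, 3 were above 0 and the median was −0.14. At least 2-fold lower was 1 of the 8, against 3.09% of all measured genes. That gene, SPRY1, was at −1.18 (−1.32 to −1.04), though at −0.97 with deposited TPM and −0.83 on log2(FPKM + 1), and DUSP5 at −0.54, but SPRED3 at 0.77 and SPRED2 at 0.51.

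Genes reported elsewhere as targets of AP-1 or EGR factors were read against all measured genes, of which 47.3% were above 0. Of 21 AP-1 targets other than FOSL1, 9 were measured, 7 of them below 0, with a median of −0.33 and 0 at least 2-fold apart in either direction. The 4 with the largest absolute ratios, all below 0, were VEGFA, at −0.81 (−0.92 to −0.70), TGFB1, at −0.78 (−0.89 to −0.68), HMGA1, at −0.58, and IL11, at −0.51. With centring VEGFA stayed at −0.81, while TGFB1 was at −0.48, HMGA1 at −0.34 and IL11 at −0.35. The matrix metalloproteinase genes MMP1, MMP3, MMP9, MMP10 and MMP13, and IL6 and CXCL8, were among the 12 under the filter. Of 15 EGR targets, 12 were measured, 9 of them below 0, with a median of −0.20 and 0 at least 2-fold apart. FLT1, a VEGF receptor, was at −0.99 (−1.17 to −0.81), or −1.13 and past 2-fold with centring, IGF2 at −0.91 (−0.99 to −0.83), PTGES at −0.82 (−1.20 to −0.45) and TGFB1, in both target lists, at −0.78. With centring IGF2 was at −0.92 and PTGES at −0.62.

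**Figure D5:**
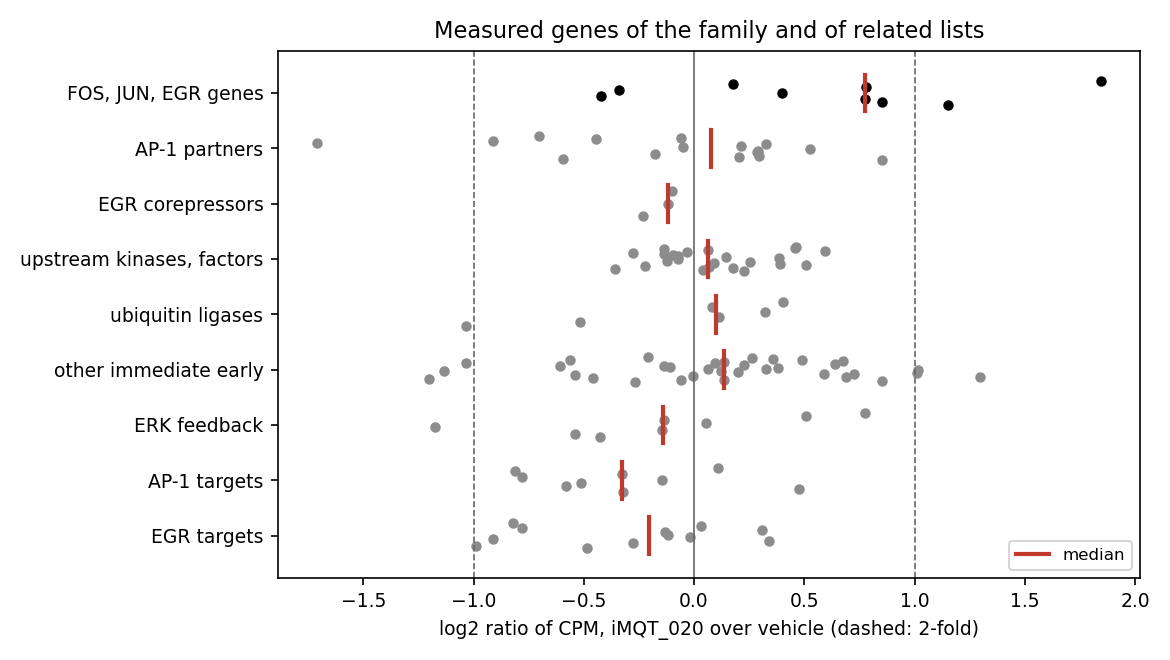
Log2 ratio of CPM, iMQT_020 over vehicle, of each measured gene (points) in the FOS, JUN and EGR family and in 8 related lists, with red lines at the medians and dashed lines at 2-fold. The family has a median of 0.77, and the related lists have medians between −0.33 and 0.14.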

How the data were processed

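Libraries came from TRIzol-extracted total RNA, with spliced mapping by HISAT2 and Bowtie2 against GRCh38, per the labels' protocols. The submitters' processing notes also list StringTie and edgeR, with no version or role. The strand setting of the counting is not given in the sources used here. The deposited values were estimated counts (whole numbers), FPKM and TPM for each gene, per the file headers. A second, shorter deposited table held FPKM already in the first, for 20787 genes. Columns were assigned by name, with 0 left unassigned.

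Counts were scaled by TMM in edgeR 4.0.16 (R 4.3.3), with factors of 1.00 (iMQT_020) and 0.998 (vehicle). The prior count was 0.5. No test was possible with 1 library for each treatment, so there are no p-values and genes were read by a 2-fold rule. Intervals are exact Clopper-Pearson 95% intervals, conditional exact intervals for ratios between 2 genes, and cover counting error only; estimated counts were taken as whole reads, so the intervals may be too narrow. The calculation was tested on simulated Poisson counts. GC content and length came from canonical GENCODE 44 transcripts for 93.6% of measured genes, and positions and upstream sequences from RefSeq GRCh38.p14, which held windows for 8 of the 10 genes. Python 3.11.15, numpy 2.4.6, pandas 2.3.3, scipy 1.17.1 and matplotlib 3.10.9 were used.

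The genes, the lists and the motifs were chosen with earlier results of these data known. All 10 genes are described; in each other list, the 4 measured genes with the largest absolute ratio are named (all where fewer), and others are marked where they were picked on their values. Alternatives were median-of-ratios scaling (DESeq2 1.42.0), total counts, upper quartile, TMM without mitochondrial and rRNA genes or on protein-coding genes, minimums of 10, 200 or no counts or a mean of 50, a prior of 5, a threshold of 1.5-fold, a 2-fold threshold on the nearer interval bound, deposited FPKM and TPM with or without an added 1, and centring in 10 by 10 bins of GC content and length.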

Additional observations from a re-analysis of the deposited data

How the results depend on the processing

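The number of genes at least 2-fold higher, 2 by counts, was 5 with the 1.5-fold rule and 1 on log2(FPKM + 1), where EGR3 was within 2-fold. It was 2 or 3 under the other alternatives, the 3 arising with centring on GC content and length, which added FOSB. The number at least 2-fold lower was 0 under each alternative. The median log2 ratio of 0.77 was 0.52 on log2(TPM + 1), where the added 1 weighs on low genes, and 0.68 to 0.83 under the others. Of 109 recomputed ratios of single genes, 13 moved beyond the counting interval of that gene, and 0 changed sign.

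No paired analysis was possible because each group had 1 library, and leaving out a replicate was not run for the same reason. Depth limits FOSL1, EGR2 and EGR4 most, and variation between cultures was not measured.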
